A study of Mus musculus with 19 samples.

Results

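The 6 genes Taf4b, Sohlh2, Figla, Lhx8, Sohlh1 and Nobox encode transcription factors of the oocyte, and they did not start together in the developing mouse ovary. Taf4b and Sohlh2 were already measured above the median signal at gestation day (gd) 11 and were highest at gd14. Figla rose first at gd14, Lhx8 in steps from gd14 to gd18, and Sohlh1 and Nobox mainly at gd16 and gd18. These 4 genes had their highest means at postnatal day (pnd) 2, where none of them differed from gd18 by the test used. The genes were chosen by name, with earlier results of these data known. They stand for 6 of the 18193 genes with a probe set annotated to a single gene on the array, and 8 probe sets matched them, of which all 8 passed the filter on low values. Figla (1450369_at), Nobox (1425759_at), Lhx8 (1427300_at), Sohlh1 (1460015_at) and Sohlh2 (1429817_at) each had 1 probe set. Taf4b had 3, of which the brightest on average over the 18 ovary arrays (1435303_at) was used, with the others beside it.

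The study followed wild-type female CD-1 mice, an outbred strain, with 3 arrays of ovary RNA per stage, at gd11, gd12 and gd14, then at gd16, gd18 and pnd2. A further array held RNA of whole newborn animals at pnd 0.5, pooled from 4 males and 4 females. Per the labels, the samples of gd11, gd12 and gd14 were pools of 3 and the later ones were not pooled, whereas the series text gives each sample as the ovaries of 1 animal. gd11 samples 16 and 18 were labelled as gonad with mesonephros, the embryonic kidney beside the gonad, and sample 19 as gonad. According to the series text each sample came from a different dam, except that gd11 samples 18 and 19 shared 1.

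In mice, germ cells settle in the gonad as primordial germ cells, enter meiosis before birth and are enclosed in primordial follicles around birth, after which oocytes start to grow. FIGLA, SOHLH1 and SOHLH2 are basic helix-loop-helix proteins, a class that binds the E-box (CANNTG) as dimers. LHX8 is a LIM-homeobox protein and NOBOX a homeobox protein, while TAF4B is a subunit of TFIID, the complex that places RNA polymerase II at promoters, and is enriched in gonads. From studies of mouse mutants, FIGLA is known for the formation of primordial follicles and for the genes of the zona pellucida, the coat of the egg. SOHLH1, SOHLH2, LHX8 and NOBOX are known for the survival and early growth of oocytes, and TAF4B for the size of the oocyte pool.

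Because 3 of the genes encode factors of the E-box class, the 250 bases before the start site are shown for members whose window lies outside the annotated gene, and for Zp3, a zona gene known as a target of FIGLA. The sequences are from RefSeq, build GRCm38.p6, written 5′ to 3′ on the strand of the gene, with each CANNTG in capitals.
Sohlh1 (chr2:25847249-25847498, minus strand): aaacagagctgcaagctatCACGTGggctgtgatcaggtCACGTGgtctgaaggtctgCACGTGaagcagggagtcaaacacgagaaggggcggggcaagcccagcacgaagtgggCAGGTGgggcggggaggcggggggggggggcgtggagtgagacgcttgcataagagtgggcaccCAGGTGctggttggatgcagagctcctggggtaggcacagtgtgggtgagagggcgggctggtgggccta
Sohlh2 (chr3:55181794-55182043, plus strand): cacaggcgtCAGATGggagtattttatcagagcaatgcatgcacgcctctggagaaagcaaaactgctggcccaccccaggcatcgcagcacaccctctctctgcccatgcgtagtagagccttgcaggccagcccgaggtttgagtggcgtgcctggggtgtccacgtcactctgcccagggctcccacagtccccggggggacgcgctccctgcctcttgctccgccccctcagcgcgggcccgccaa
Lhx8 (chr3:154330561-154330810, minus strand): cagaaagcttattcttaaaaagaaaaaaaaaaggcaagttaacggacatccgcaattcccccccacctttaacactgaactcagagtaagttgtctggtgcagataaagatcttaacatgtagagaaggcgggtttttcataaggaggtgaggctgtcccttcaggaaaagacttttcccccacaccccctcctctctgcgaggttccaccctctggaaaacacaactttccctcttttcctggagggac
Zp3 (chr5:135979855-135980104, plus strand): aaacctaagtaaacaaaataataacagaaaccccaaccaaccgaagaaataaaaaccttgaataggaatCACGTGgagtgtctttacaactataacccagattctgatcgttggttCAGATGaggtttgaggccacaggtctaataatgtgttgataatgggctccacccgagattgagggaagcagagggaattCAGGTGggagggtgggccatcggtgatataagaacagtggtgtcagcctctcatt
CANNTG reads the same on both strands. The Sohlh1 window held 5 matches, of which 3 had the centre CG (CACGTG), starting 231, 211 and 192 bases before the start site. The other 2, starting 134 and 70 bases before it, were CAGGTG on either strand. Sohlh2 held 1 match and Lhx8 none. Zp3 held 3, among them 1 with the CG centre at 181 bases. The windows of Figla and Nobox lie inside the genes as RefSeq annotates them, so they are not printed. Each held 2 matches, none with the CG centre. Of 32841 promoter windows of this length in the table, 66.2% held a match. The form with the CG centre was in 6.02% of windows and the form with the GG centre in 17.2%, and 20 windows (0.0609%) held 3 or more with the CG centre. TAATTG, a core bound by homeobox proteins and counted on both strands, was in none of the 5 members' windows and in 7.17% of all. A match is a run of letters and not a measured binding site. The members lie on chromosomes 2 (Sohlh1), 3 (Lhx8 and Sohlh2), 6 (Figla and Nobox) and 18 (Taf4b).

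Signals below are the deposited intensities on a linear scale, as mean ± SD of the 3 arrays of a stage (n = 3). Log2 differences are of log2(signal + 31), given ± SE from limma, so that changes from low signals are understated. A change was called at a Benjamini-Hochberg adjusted p under 0.05 over all 26431 probe sets tested. Signals of different probe sets are not on a common scale, so levels are compared only within a gene, apart from the use of the median signal as a common mark. Fewer oocytes and less RNA per oocyte cannot be told apart in whole ovaries. All 6 genes changed over the 6 stages by the F test of limma (adjusted p from 6e-12 for Lhx8 to 4.2e-07 for Sohlh2), as did 62.8% of all probe sets tested.

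The plot of every array shows the order in which the genes rose.

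**Figure D1:**
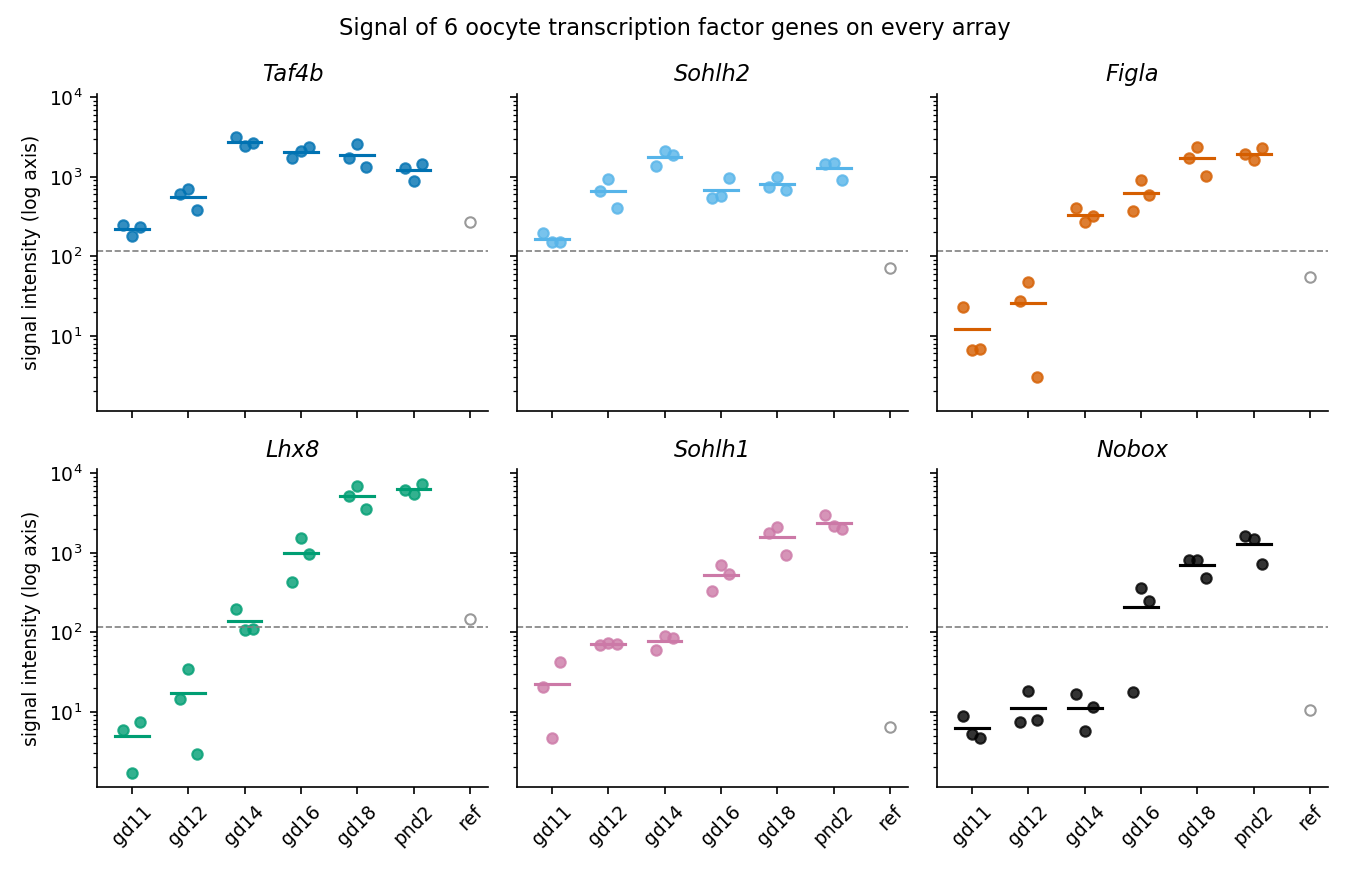
Signal intensity on a log axis of the 6 genes on each array (points), with the mean of the 3 arrays of a stage (bars); the dashed line is the median of all ovary values (116.05) and the open point the whole newborn array. Taf4b and Sohlh2 lie above the line on every ovary array, Figla from gd14, Lhx8 and Sohlh1 from gd16 and Nobox from gd18.

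Several arrays stood apart. gd16 sample 7 had a signal of 44.8 for Xist, the RNA that silences an X chromosome in female cells, against 11306 or more on the other 17 ovary arrays. The Y-linked genes were low on all 18: on sample 7 Eif2s3y, Kdm5d and Uty read 40.2, 64.4 and 29.4, and on the other 17 at most 33.1, 84.4 and 45.7. The summed neural markers of gd11 sample 16 (4 of 5 genes with a probe set) were 15690, against 776 and 1289 on the other gd11 arrays. The ratio of 3' to 5' signal for Gapdh, a measure of sample quality, differed between stages. It lay between 2.987 and 3.28 on the gd11 arrays and between 5.068 and 5.408 on those of pnd2. The RNA was amplified, so the ratio does not read how intact the RNA was by itself. The part of these differences in the results was not tested, other than by leaving out the array.

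Taf4b and Sohlh2 were the genes with an early peak. The signals of Taf4b were 250, 181 and 237 at gd11, 606, 701 and 385 at gd12, and 3195, 2451 and 2698 at gd14, with no overlap between these stages. From gd11 to gd12 Taf4b rose by 1.20 ± 0.24 (adjusted p = 0.00758), to 564 ± 162. From gd12 to gd14 it rose by 2.27 ± 0.24 (adjusted p = 2.64e-06), to 2781 ± 379. Later it declined over several stages: the means were 2073 ± 319 at gd16, 1869 ± 630 at gd18 and 1206 ± 278 at pnd2. No single later step of Taf4b passed the test, but pnd2 was lower than gd14 by a log2 difference of -1.20 ± 0.24 (adjusted p = 0.000909). In order of level, neighbours that were not called different were gd14 and gd16 (0.42 ± 0.24), gd16 and gd18 (0.19 ± 0.24), and gd18 and pnd2 (0.59 ± 0.24). Without gd12 sample 14, the array of gd12 on which all 6 genes were highest, the rise from gd11 to gd12 was 1.03 and was not called (adjusted p = 0.0616).

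The second Taf4b probe set, 1435302_at, followed the same course. Its means were 181 ± 11.8 at gd11, 2431 ± 526 at gd14 and 1000 ± 150 at pnd2, and its rise to gd12 was 1.06 ± 0.28 (adjusted p = 0.0361). The third, 1431193_at, was dim, with stage means from 24.7 to 117. It too was highest at gd14 (log2 difference to gd11 1.36 ± 0.35, adjusted p = 0.00625). Its difference from gd11 to gd12 was not called (0.11 ± 0.35, adjusted p = 0.912), nor was that from gd14 to pnd2 (-0.77 ± 0.35, adjusted p = 0.107).

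Sohlh2, a partner in the same class as SOHLH1, rose and fell and then rose again. Its signals were 194, 153 and 153 at gd11, 661, 934 and 411 at gd12 and 1371, 2111 and 1899 at gd14, again with no overlap. The gain was 1.76 ± 0.27 from gd11 to gd12 (adjusted p = 0.00112) and 1.43 ± 0.27 from gd12 to gd14 (adjusted p = 0.00126). At gd16 Sohlh2 fell to 537, 580 and 957, below every array of gd14, a change of -1.36 ± 0.27 (adjusted p = 0.0021). It was 809 ± 171 at gd18 and 1282 ± 316 at pnd2. Neither of these steps passed the test, whereas pnd2 was called above gd16 (0.88 ± 0.27, adjusted p = 0.0199), although 1 or more arrays of these stages overlapped. In order of level Sohlh2 ran gd11, gd12, gd16, gd18, pnd2 and gd14. Of these neighbours only gd11 and gd12 were called different.

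Figla was near the floor of the signals until gd12 and then rose. Its signals were 23.3, 6.63 and 6.75 at gd11 and 27.1, 47.4 and 3.02 at gd12, which overlapped, and 403, 273 and 326 at gd14. The rise from gd12 to gd14 was 2.75 ± 0.33 (adjusted p = 1.26e-05), the largest of the 5 steps for this gene, and every gd14 array lay above every earlier one. Signals of 369, 901 and 588 followed at gd16. The gain over gd14 was 0.77 ± 0.33 and was not called (adjusted p = 0.116). At gd18 the arrays read 1747, 2361 and 1029 and at pnd2 1948, 1614 and 2281. Figla rose by 1.43 ± 0.33 from gd16 to gd18 (adjusted p = 0.0126), and the difference of 0.25 ± 0.33 from gd18 to pnd2 was not called (adjusted p = 0.691). Without gd16 sample 7, the gain at gd16 was 1.07 and was called (adjusted p = 0.0456), while that at gd18 was 1.12 and was not (adjusted p = 0.0715). Without gd18 sample 5 the gd18 gain was 1.16 and was not called either (adjusted p = 0.0716).

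Lhx8 had the widest range of the genes on its own scale, 7.46 log2 units between gd11 and pnd2. It read 5.90, 1.70 and 7.43 at gd11 and 14.6, 34.2 and 2.95 at gd12, then 196, 106 and 110 at gd14. All 3 gd14 arrays were above all earlier ones, a rise of 1.82 ± 0.35 (adjusted p = 0.00127), although only 1 of them exceeded the median signal. At gd16 Lhx8 read 435, 1559 and 956, a rise of 2.46 ± 0.35 (adjusted p = 0.000117). At gd18 it read 5229, 6922 and 3593, a rise of 2.5 ± 0.35 (adjusted p = 0.000282). Groups did not overlap at any of these 3 steps. The pnd2 arrays, at 6258, 5464 and 7359, overlapped with gd18, and the difference of 0.32 ± 0.35 was not called (adjusted p = 0.612). The 3 rises of Lhx8 were called without any 1 of the 18 arrays; those at gd16 and gd18 were then 2.05 to 2.94 and 2.03 to 2.91.

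Sohlh1 rose later than Sohlh2. Its signals were 20.6, 4.64 and 42.7 at gd11, 69.9, 73.6 and 72.03 at gd12 and 60.5, 89.0 and 85.2 at gd14, all below the median of the ovary arrays. gd12 lay above gd11 on every array, but the difference of 1.001 ± 0.30 was not called (adjusted p = 0.0673), nor was that from gd12 to gd14 of 0.08 ± 0.30 (adjusted p = 0.895). gd14 was called above gd11 (1.08 ± 0.30, adjusted p = 0.0106). At gd16 the arrays read 333, 710 and 536, a rise of 2.30 ± 0.30 (adjusted p = 6.76e-05), and at gd18 1774, 2085 and 928, a rise of 1.53 ± 0.30 (adjusted p = 0.00433), both without overlap. The pnd2 arrays read 2970, 2185 and 2013, and the difference to gd18 was 0.63 ± 0.30 (adjusted p = 0.183). From gd14 to gd16, Sohlh1 and Sohlh2 were thus called in opposite directions.

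Nobox was the last. On the 9 arrays of gd11, gd12 and gd14 its signal did not exceed 18.2. At gd16 it read 366 and 246 on samples 8 and 9 and 17.8 on sample 7, which lay just above the highest gd14 array (16.6). The rise from gd14 to gd16 was 2.06 ± 0.51 (adjusted p = 0.00907), and without sample 7 it was 2.98 (adjusted p = 2.51e-05). At gd18 Nobox read 812, 803 and 477, above every gd16 array, a rise of 2.02 ± 0.51 (adjusted p = 0.0199). Without gd16 sample 7 this rise was 1.10 and was not called (adjusted p = 0.0563), and neither was it without gd18 sample 4 or 5 (adjusted p = 0.0772 and 0.0735). Without gd16 sample 8 the rise at gd16 was 1.47 and was not called (adjusted p = 0.0563). The pnd2 arrays read 1617, 1493 and 720, overlapping with gd18 (difference 0.80 ± 0.51, adjusted p = 0.338).

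Taken step by step, 2 of the 6 genes rose from gd11 to gd12 (Taf4b and Sohlh2), when 3.07% of all probe sets tested were called higher and 1.05% lower. From gd12 to gd14, 4 rose (Taf4b, Sohlh2, Figla and Lhx8; 9.42% of probe sets higher, 7.05% lower). From gd14 to gd16, 3 rose (Lhx8, Sohlh1 and Nobox; 9.68% of probe sets) and Sohlh2 fell (9.10% of probe sets). From gd16 to gd18, 4 rose (Figla, Lhx8, Sohlh1 and Nobox; 4.58% of probe sets higher, 3.00% lower). When gd16 sample 7 was left out, 4 rose in the former step and 2, Lhx8 and Sohlh1, in the latter. From gd18 to pnd2 limma called none of the 6 (6.60% of probe sets higher, 6.39% lower). At an unadjusted p under 0.05, 2 of them were higher and 1 lower at that step. The share of all probe sets at this looser threshold was not counted, so these numbers have no background beside them.

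**Figure D2:**
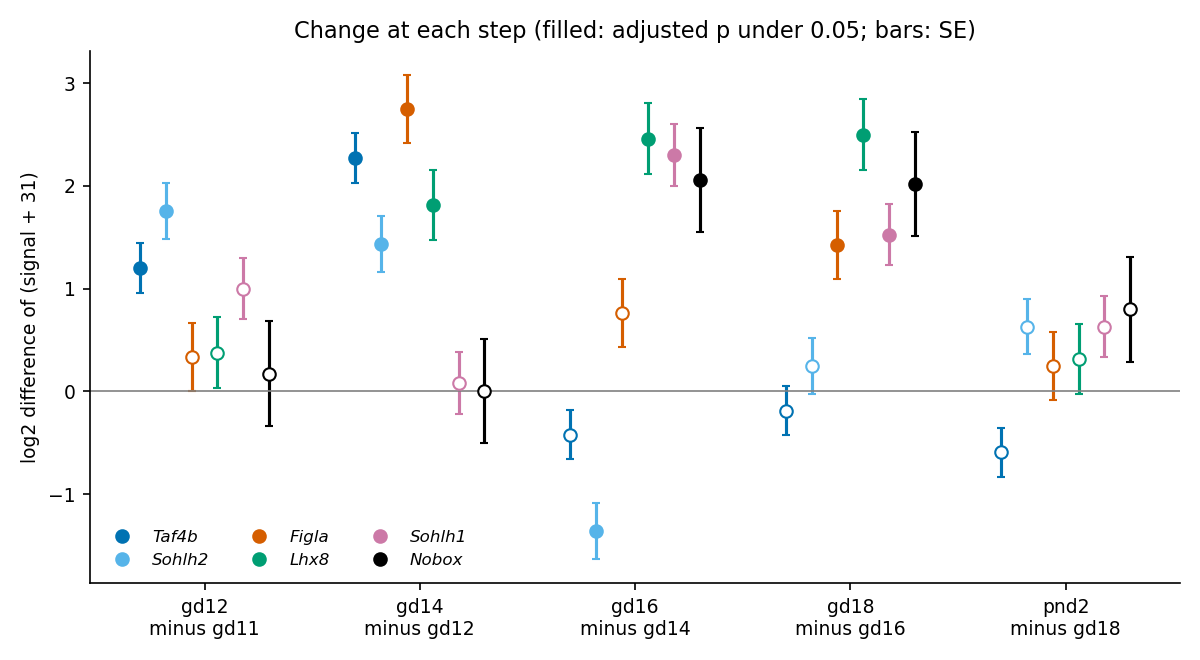
Log2 difference of (signal + 31) between each stage and the stage before it for the 6 genes, with SE from limma; filled points passed an adjusted p of 0.05. Taf4b and Sohlh2 rise in both of the first steps, Lhx8 in the next 3 after gd12, Sohlh2 alone is called lower (gd16), and no point is filled at pnd2.

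Against gd11, 5 of the genes were called higher at gd14 (16.9% of probe sets), all but Nobox. All 6 were called higher at gd16 (23.7% of probe sets), at gd18 (20.5%) and at pnd2 (22.4%). From gd14 to pnd2, Taf4b was the 1 member called lower (15.3% of probe sets). Of the 15 pairs of stages, the later stage was called higher in 13 for Lhx8, 12 for Figla, 12 for Sohlh1 and 11 for Nobox, and lower in none for these 4. For Taf4b it was higher in 9 and lower in 2 pairs, and for Sohlh2 higher in 8 and lower in 2.

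Onset was read in 3 ways. The first stage with all 3 arrays above the median signal was gd11 for Taf4b and Sohlh2, gd14 for Figla, gd16 for Lhx8 and Sohlh1 and gd18 for Nobox. This mark is the same for probe sets of unlike scales, so the order by it depends on the probe set. The dim Taf4b probe set 1431193_at did not have all 3 arrays above it at any stage. The number of genes past this mark was 2 at gd11 and at gd12, 3 at gd14, 5 at gd16 and 6 at gd18. On single ovary arrays, 47.85% (gd11 sample 19) to 54.17% (gd16 sample 7) of all probe sets exceeded the median. The share with all 3 arrays of a stage above it was not counted. The first stage called above gd11 was gd12 for Taf4b and Sohlh2, gd14 for Figla, Lhx8 and Sohlh1 and gd16 for Nobox. The first stage at or past the midpoint of the gene's own log2 range was gd12 for Sohlh2, gd14 for Taf4b and Figla, gd16 for Lhx8 and Sohlh1 and gd18 for Nobox. By each reading in the fit of all arrays Nobox came last, and Sohlh2 was first or shared the first place. The place of Sohlh1 depended on the reading: its small early difference was called by gd14, while its level passed the median at gd16. Without gd16 sample 7 the onset of Nobox by the first and the last reading was gd16, the same as for Lhx8 and Sohlh1, and by the last reading it was gd16 with a pseudocount of 8 too.

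**Figure D3:**
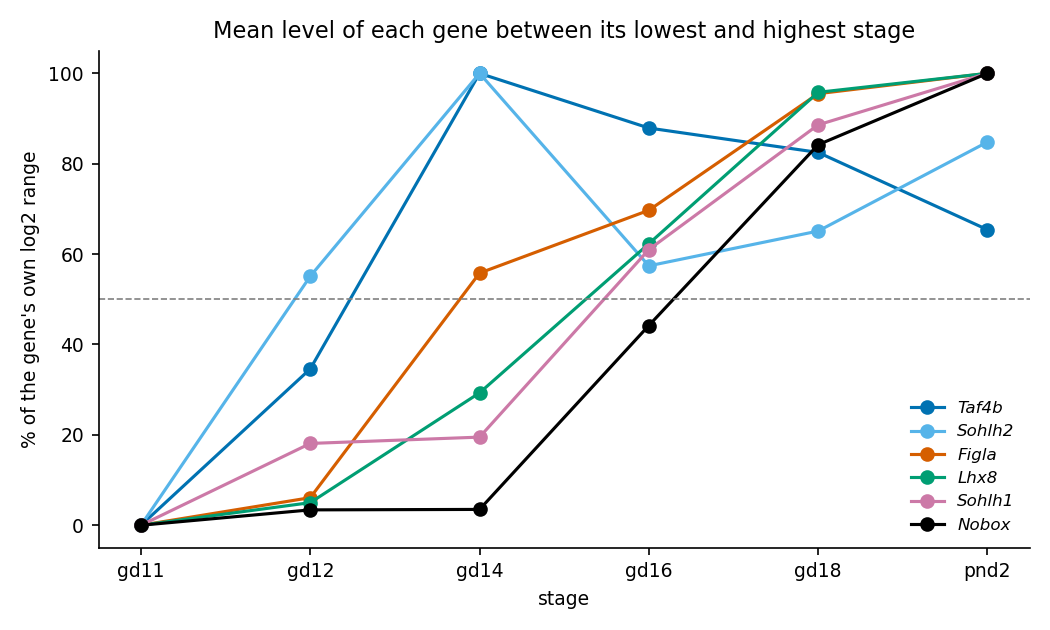
Mean log2 level of each gene at each stage as a percent of its own range, from its lowest stage (0%) to its highest (100%); the dashed line marks 50%. Sohlh2 and Taf4b reach 100% at gd14, when Figla stands at 55.8%, Lhx8 at 29.3%, Sohlh1 at 19.5% and Nobox at 3.5%.

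At gd14 the genes were thus spread over almost the whole of their ranges, from 3.5% (Nobox) to 100% (Taf4b and Sohlh2). At gd16 Nobox stood at 44.2%, Sohlh2 at 57.4%, Sohlh1 at 61.0%, Lhx8 at 62.3%, Figla at 69.7% and Taf4b at 87.9%. By gd18 the 4 genes highest at pnd2 stood between 84.2% (Nobox) and 95.8% (Lhx8).

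Within a stage the genes deviated together on some arrays. On gd16 sample 7 and on gd18 sample 6 all 6 genes had the lowest of the 3 signals of their stage, with median deviations from the stage mean of -0.59 and -0.49 on the log2 scale. On gd12 sample 14 all 6 were highest (median 0.41) and on gd18 sample 5 5 of 6 were (median 0.45). Germ cell markers moved on some of the same arrays. Of 6 markers with a probe set of 7 listed, all 6 were highest on gd12 sample 14 and 5 on gd18 sample 5, and 4 were lowest on gd16 sample 7 and on gd18 sample 6. On other arrays they did not: on gd14 sample 10, 5 of 6 markers were lowest and 4 of 6 members highest, and on pnd2 sample 1 all 6 markers but 2 members were highest. The summed markers were 6484, 10850 and 3191 on gd12 samples 13, 14 and 15, and the summed signals of the 6 transcription factor genes were 1386, 1809 and 882. Their part in the spread of the members was not tested. How many of all probe sets were lowest or highest on these arrays was not counted, so the counts have no background here. gd16 sample 7 also had the highest median signal of the ovary arrays (137.6).

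**Figure D4:**
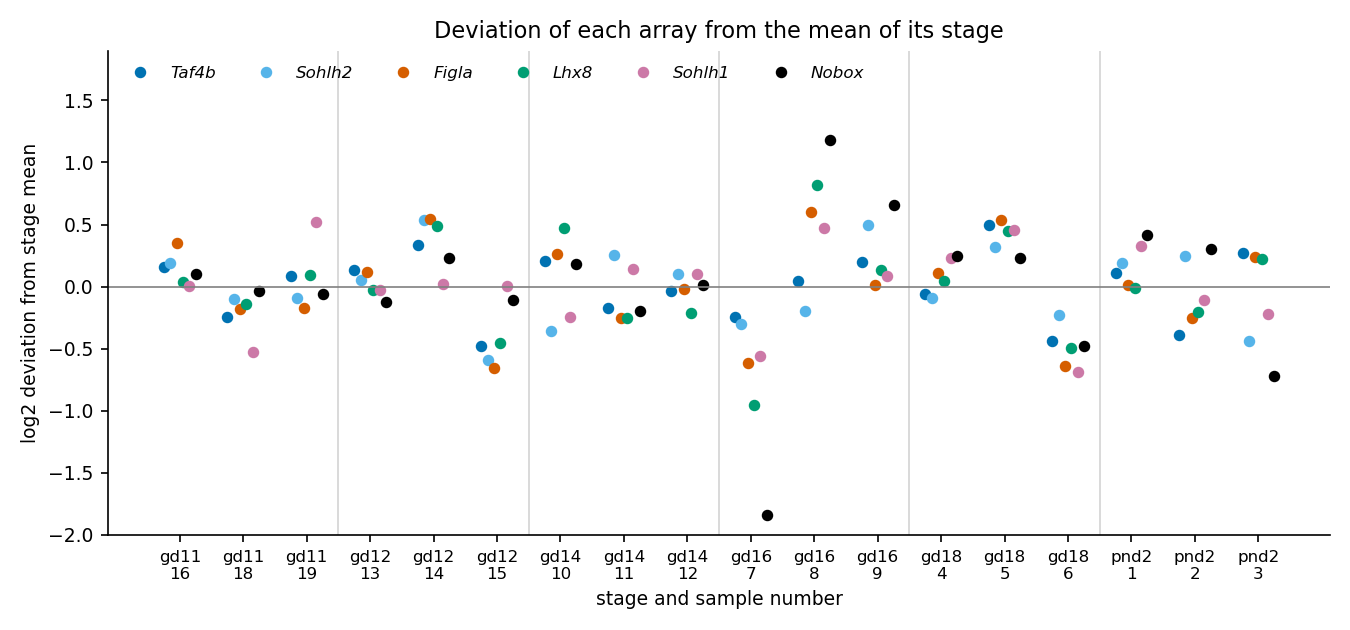
Deviation of log2(signal + 31) from the mean of its stage on each of the 18 ovary arrays, by stage and sample number, for the 6 genes (colours). All 6 points lie below 0 on gd16 sample 7 and gd18 sample 6 and above 0 on gd12 sample 14, and the lowest is Nobox on gd16 sample 7 (-1.84).

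The germ cell markers differed from stage to stage too. All 6 tested rose from gd11 to gd12, among them the RNA-binding protein Dazl (3.31 ± 0.40) and the helicase Ddx4 (2.72 ± 0.38). From gd12 to gd14, 4 rose and 1 fell, and from gd14 to gd16, 3 fell, Ddx4 by -1.30 ± 0.38, and the other 3 were not called. The number that fell was 2 without gd16 sample 7, when Ddx4 missed the threshold (adjusted p = 0.0547). The lowest and highest sums of the 6 markers were 692 and 1152 at gd11, and 24320 and 30350 at gd14. They were 11060 and 13420 at gd16, then 14500 and 25050 at gd18, and 13990 and 18950 at pnd2. Of the 6 markers only Dppa3 was called at the last steps. It rose at gd18 (2.72 ± 0.33, adjusted p = 0.000104) and again at pnd2 (1.68 ± 0.33, adjusted p = 0.00229), to 4557 ± 1090. From gd14 to gd16, when Dazl (-1.54 ± 0.40), Tex14 (-1.39 ± 0.31) and Sohlh2 fell, Lhx8, Sohlh1 and Nobox rose. Of 5 genes that time meiosis, all 5 rose from gd12 to gd14, when Taf4b and Sohlh2 rose to their peak. Stra8, needed to start meiosis, gained 5.12 ± 0.47, and the synaptonemal complex gene Sycp1 5.44 ± 0.32. From gd14 to gd16, 4 of the 5 fell (3 without gd16 sample 7), Stra8 by -4.98 ± 0.47. Sums of the meiotic genes lay between 181 and 278 at gd11, between 18350 and 24820 at gd14, and between 8069 and 11600 at gd16. Later they lay between 14180 and 20670 at gd18 and between 9919 and 17230 at pnd2. At gd18 Sycp3 was called higher (1.19 ± 0.33) and Dmc1 lower (-0.93 ± 0.26). Neither was called without gd16 sample 7 (adjusted p = 0.142 and 0.0774).

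The zona pellucida genes, known targets of FIGLA, were not called when Figla first rose at gd14. Zp2 and Zp3 were first called at gd18, when Figla rose again in the fit of all arrays. Zp1, Zp2 and Zp3 were at 34.4 ± 28.0, 24.0 ± 9.12 and 40.6 ± 6.34 at gd14, when Figla was called, and none of the 3 was called at any step up to gd16. From gd16 to gd18, Zp2, a protein of the egg coat that sperm bind, rose by 2.77 ± 0.33 (adjusted p = 9.43e-05), to 393 ± 150. Zp3, another coat protein, rose by 1.22 ± 0.31 (adjusted p = 0.0208). From gd18 to pnd2 all 3 rose, with a median log2 difference of 4.54 against -0.03 over all genes tested. Zp2 read 538, 401 and 239 at gd18 and 11298, 9131 and 7939 at pnd2, far apart, while Figla on the same arrays overlapped. Zp3 gained 5.45 ± 0.31 and Zp1 4.51 ± 0.43 (adjusted p = 4.51e-09 and 1.65e-06). Leaving out gd16 sample 7, neither Zp3 (0.82, adjusted p = 0.104) nor Figla (1.12, adjusted p = 0.0715) was called at gd18. Figla was then called at gd16 (1.07, adjusted p = 0.0456). All 3 zona genes were called at pnd2 without that sample.

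Most of the other genes of growing oocytes were called higher at pnd2. Of 14 listed, 13 had a probe set and 11 passed the filter. The counts called higher were 1 at gd12, 0 at gd14, 2 at gd16, 5 at gd18 and 10 at pnd2, and 1 was lower at gd16. The counts higher without gd16 sample 7 were 1 at gd16, 4 at gd18 and 10 at pnd2. Gdf9, a growth factor of oocytes lowered in mice without Nobox, was 142 ± 27.8 at gd16, 266 ± 59.3 at gd18 (not called, adjusted p = 0.0915) and 3376 ± 1400 at pnd2, a gain of 3.46 ± 0.27 (adjusted p = 1.73e-07). By size, the largest gains at pnd2 were those of Nlrp14, an oocyte NLR-family gene (5.94 ± 0.34), Padi6, which builds the cytoplasmic lattices of the egg (5.5 ± 0.31), Rfpl4 (3.74 ± 0.42) and Nlrp5, needed for cleavage of the early embryo (3.69 ± 0.32). At gd18 the largest were those of Nlrp4f (4.24 ± 0.41), Nlrp5 (3.25 ± 0.32), Kit, the receptor that oocytes use for growth (2.05 ± 0.20), and Nlrp14 (1.82 ± 0.34). Nlrp5 was already called at gd16 (1.84 ± 0.32). Nlrp4f, at 55.1 ± 17.9 at gd16 and 1875 ± 1210 at gd18, gained less at pnd2 (2.70 ± 0.41), and Kit was not called there (0.59 ± 0.20, adjusted p = 0.0598; called without gd11 sample 16, adjusted p = 0.0495). Bmp15, also known to be lowered without Nobox, did not pass the filter, with 112 ± 41.5 at pnd2 and stage means of 20.2 or less before. The median log2 difference of the 11 genes at pnd2 was 3.16, beside 0.47 for the 6 transcription factor genes and -0.03 for all genes tested.

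**Figure D5:**
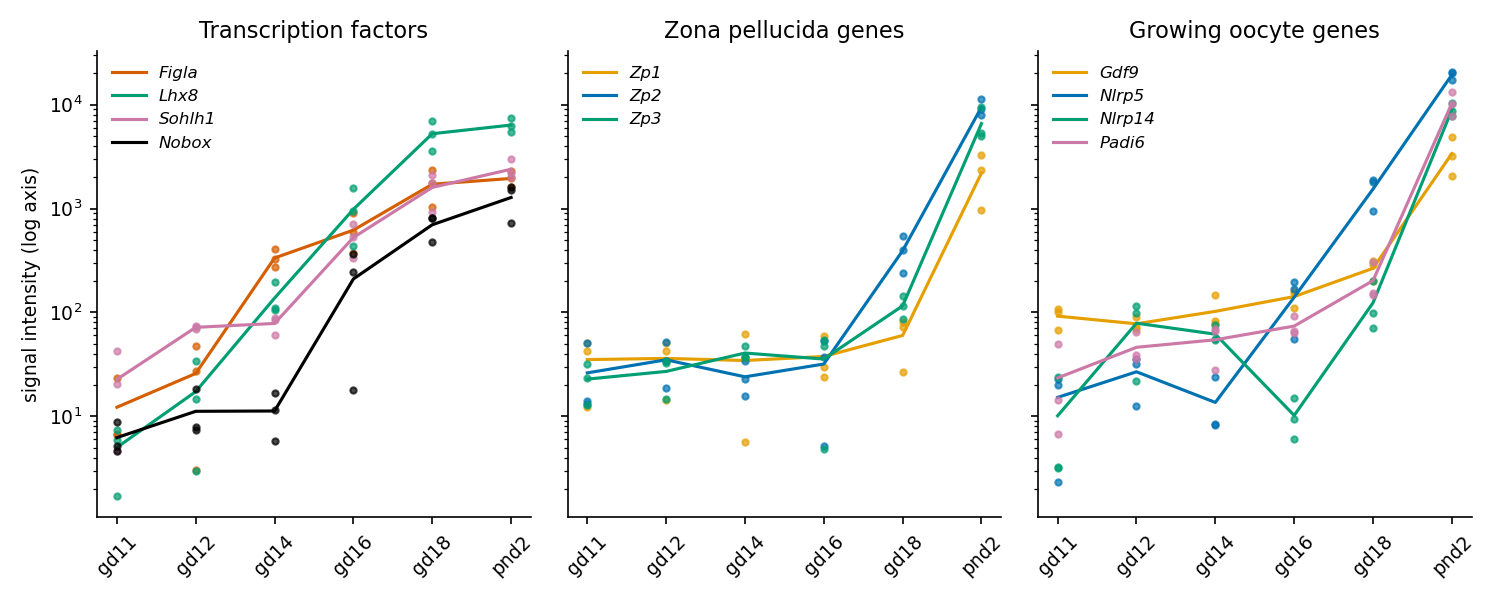
Signal intensity on a log axis by stage for the 4 transcription factor genes highest at pnd2, the 3 zona pellucida genes and 4 genes of growing oocytes (points are arrays, lines join stage means; levels of different genes are not comparable). The transcription factor genes rise between gd12 and gd18, while the zona genes and Gdf9, Nlrp14 and Padi6 gain most from gd18 to pnd2.

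FIGLA forms dimers with E proteins, and Id proteins hold E proteins away from DNA. Of their genes, only those of Id proteins were called at the last step in the fit of all arrays. None of the 7 was called from gd11 to gd12, and the E protein gene Tcf4 was the only one called at gd14 (-0.45 ± 0.15, adjusted p = 0.0437). Id1 rose at gd16 (1.06 ± 0.26) and Tcf4 at gd18 (0.63 ± 0.15). From gd18 to pnd2, when none of the 6 transcription factor genes was called, all 4 Id genes fell (median over the 7 genes -0.98), Id3 by -1.66 ± 0.22 (adjusted p = 5.5e-05), from 3113 ± 175 to 970 ± 132, and Id1 by -1.52 ± 0.26 (adjusted p = 0.000811). Id4 was not called without gd16 sample 7 (adjusted p = 0.0553), whereas the E protein gene Tcf12 was then called lower (-0.373, adjusted p = 0.0195). Ovarian somatic cells express these genes too.

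Of 18 other subunits of TFIID and TBP-like factors, 16 had a probe set. From gd12 to gd14, when Taf4b gained most, 8 of them rose and 1 fell, with a median log2 difference of 0.50 against -0.02 for all genes tested. Taf7l, a relative of Taf7 known from germ cells, read 137, 182 and 125 at gd12 and 7594, 6715 and 5813 at gd14 (5.24 ± 0.39, adjusted p = 3.34e-08). Taf9b, a relative of Taf9, gained 1.78 ± 0.25 and Taf3 1.20 ± 0.20. Taf4, the relative of Taf4b found in most cells, was not called at that step. It rose at gd18 (0.80 ± 0.19, adjusted p = 0.0141), but was not called without gd16 sample 7 (adjusted p = 0.0673). From gd14 to gd16, 4 of the 16 fell and none rose, among them Taf7l (-1.31 ± 0.39) and Taf3 (-0.81 ± 0.20). The difference of Taf7l was -0.71 without gd16 sample 7 and was not called (adjusted p = 0.144). Taf4b was not called at that step (-0.42 ± 0.24, adjusted p = 0.235). From gd18 to pnd2, 2 fell, Taf7l by -4.54 ± 0.39 (adjusted p = 5.37e-07), to 217 ± 123, and Taf9b by -1.80 ± 0.25. Taf4b kept a mean of 1206 ± 278 there. Without gd16 sample 7, 3 of the 16 fell at gd16 and 3 at pnd2, and none was called at gd18. Tbp, the TATA-binding core of the complex, had stage means from 701 to 764 and was called at none of the 5 steps.

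Other LIM-homeobox genes and their cofactors were listed too. Of 13 listed, 11 were tested, and none of the 11 rose from gd12 to gd14 or from gd16 to gd18. In the former step 4 fell and in the latter 1, Lhx9. Of all probe sets tested, 9.42% were called higher and 7.05% lower in the former step, and 4.58% and 3.00% in the latter. With shares of this size, few or no rises among 11 genes are not particular to the list. Lhx9, a factor of the gonadal surface cells, rose from gd11 to gd12 (1.02 ± 0.20) to 6784 ± 2050 and was called lower at gd16, gd18 and pnd2, where it was 824 ± 89.5. Without gd16 sample 7 Lhx9 was not called at gd16 or gd18 (adjusted p = 0.0756 and 0.0839), nor at gd18 without gd11 sample 16 (adjusted p = 0.0529). Isl1, a LIM-homeobox factor of several embryonic tissues, fell from gd11 to gd12 (-2.82 ± 0.55). At gd14 the cofactor genes Ldb2 (-1.06 ± 0.28), Ssbp3 (-0.73 ± 0.13) and Ssbp2 (-0.56 ± 0.14) fell together with Lhx1 (-1.46 ± 0.47), and at gd16 Ldb2 and Ssbp2 rose (0.82 ± 0.28 and 0.75 ± 0.14), Ldb2 not without gd16 sample 7 (adjusted p = 0.135).

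Markers of other tissues were not flat over the series. Granulosa markers, of the somatic cells around the oocyte, rose with the genes at gd12 (5 of 7 called), gd14 (4 of 7, and 3 without gd16 sample 7 or gd11 sample 16) and gd16 (2 of 7). Their sums lay between 4883 and 5247 at gd11 and between 32210 and 36550 at gd16. Those of 3 markers of Sertoli cells, of the testis, lay between 583 and 1325 at gd11 and between 111 and 336 from gd12 on. Sox9, a Sertoli marker, fell from gd11 to gd12 (-1.67 ± 0.36, adjusted p = 0.0128), but was not called without gd11 sample 16 (adjusted p = 0.0728). Mesonephros markers summed to between 1431 and 2089 at gd11, between 1539 and 1835 at gd12 and between 185 and 794 at gd14. At gd18 the mesonephros sums lay between 215 and 1086. Sums of neural markers ranged between 274 and 2057 at gd12. Erythroid sums lay between 49070 and 56980 at gd11 and between 105 and 179 at pnd2. Alas2, a gene of that list, did not follow the sums: it was 501 ± 173 at gd11, 2313 ± 776 at gd16 and 112 ± 49.5 at pnd2. Its rise from gd14 to gd16 was called (1.63 ± 0.485, adjusted p = 0.0253), but not without gd16 sample 7 (adjusted p = 0.0905). The part of these tissues in the levels of the members was not tested. Without gd11 sample 16, from gd11 to gd12 Sohlh2 gained 1.86 (adjusted p = 0.00358) and Taf4b 1.28 (adjusted p = 0.017), and the other 4 were again not called.

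The genes most like each member over the 18 arrays were ranked by Pearson correlation of log2 signal among 12074 named genes. Arrays of a stage share their stage, and any gene highest late or at gd14 gains from that, so r describes the likeness of 2 courses only. Taf4b was most like Gpat2 (r = 0.982), Hsf2bp (r = 0.976) and Fmr1nb (r = 0.976), all of which were highest at gd14, Gpat2 at 4062 ± 533. Sohlh2 was most like Parp12 (r = 0.952), Tex14 (r = 0.952) and Rec114 (r = 0.929). Tex14, which is also on the list of germ cell markers, stood at 3551 ± 1100 at gd14 and 1302 ± 249 at gd16. Figla was most like Jazf1 (r = 0.982), Lrrfip2 (r = 0.981) and Gtsf1 (r = 0.981), a gene of the piRNA pathway that went from 75.6 ± 53.1 at gd12 to 1408 ± 440 at gd14 and 12600 ± 687 at pnd2. Lhx8 and Sohlh1 were among each other's 3 most like genes (r = 0.975). Both also had Tgoln1 (r = 0.981 for each) and Mbl2 (r = 0.978 for Lhx8 and 0.971 for Sohlh1). Nobox was most like Cnpy1 (r = 0.979), Sohlh1 (r = 0.961) and Esrp1 (r = 0.957). Cnpy1 read 36.3 ± 10.9 at gd14, 278 ± 236 at gd16 and 1843 ± 810 at gd18.

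On the whole newborn array, Figla read 55.7, Nobox 10.6, Lhx8 147, Sohlh1 6.37, Sohlh2 72.3 and Taf4b 269. Lhx8 and Taf4b exceeded the median signal of the ovary arrays there, and their pnd2 means were 43.1 and 4.48 times these values. The other 4 lay below it, with no detection call, so no ratio is given for them. With 1 array there is no replicate check.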

How the data were processed

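RNA of 18 ovary samples and 1 whole newborn pool was amplified in 2 rounds and hybridized to Affymetrix Mouse430_2 arrays, per the labels. The authors deposited linear signal intensities. The submitters' processing notes name GCOS, whose version is not given in the sources used here, and each array had a 2%-trimmed mean of 500. No detection calls were used. Probe sets were named from GEO's platform annotation, updated by Entrez ID to RefSeq (GRCm38.p6).

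From these values log2(signal + 31) was computed (31 is the 25th percentile of the ovary values), and probe sets with a stage mean above 116.05 (the median) in at least 1 stage were tested: 26431 of 45101. limma 3.58.1 in R 4.3.3 was fitted with 1 term per stage and 12 residual degrees of freedom, its variances moderated by eBayes with a trend on the mean. It gave an F test and all 15 pairs of stages, two-sided, each adjusted over all tested probe sets (Benjamini-Hochberg). The procedure was tested on simulated data. The number of arrays limits the precision. gd11 samples 18 and 19 shared a dam and were also averaged as an alternative.

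Named were all 6 members, the 3 genes most correlated with each (clone names left out), and called members of the lists, up to 4 by size of change per list and step, with other list members where their level is described. The members and lists were chosen with earlier results of these data known. Alternatives were other pseudocounts, normalizations, filters and variance models, fewer samples, another onset threshold, and leaving out each array. List counts and calls without gd16 sample 7 or gd11 sample 16 were added after seeing the data.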

Additional observations from a re-analysis of the deposited data

How the results depend on the processing

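Over the alternatives for the step of each member, 821 values kept their direction and their side of the threshold, 11 fell short of it, 5 newly passed it and 8 changed sign. Nobox from gd12 to gd14, where it did not change detectably, read -0.011 with quantile normalization, -0.024 with array quality weights and -0.085 to 0.120 with 1 array left out. Taf4b from gd16 to gd18 ran from -0.436 to 0.033 and Figla from gd18 to pnd2 from -0.073 to 0.513 with 1 array left out. None of these was called under any alternative.

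The number of members called higher stayed at 4 from gd12 to gd14 and at 0 from gd18 to pnd2 under every alternative run. With 1 array left out it ran from 2 to 4 from gd14 to gd16, from 1 to 3 from gd11 to gd12 (1 without gd12 replicate 14) and from 2 to 4 from gd16 to gd18 (2 without gd16 replicate 7 or gd18 replicate 5). Called probe sets numbered 1089 from gd11 to gd12, 438 with only the arrays compared and 688 with gd11 samples 18 and 19 averaged; from gd16 to gd18 they numbered 2003, and 898 with only the arrays compared. With 1 array left out they ran from 339 to 1175 (gd11 to gd12), 2604 to 4539 (gd12 to gd14), 2927 to 5200 (gd14 to gd16), 1136 to 2130 (gd16 to gd18) and 1822 to 3620 (gd18 to pnd2). A refit without an array has fewer samples.

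Beyond the arrays named above, the rise of Sohlh1 from gd11 to gd12 was called with a pseudocount of 8 (1.60, adjusted p = 0.026), with array quality weights (1.03, adjusted p = 0.034), and without gd11 replicate 19 (1.26, adjusted p = 0.0367) or gd18 replicate 6 (adjusted p = 0.0409). Figla from gd16 to gd18 was not called with a pseudocount of 8 (adjusted p = 0.0639). Nobox was not called from gd14 to gd16 or from gd16 to gd18 with only the arrays compared (adjusted p = 0.0552 and 0.103), and Taf4b was not called from gd11 to gd12 as the mean of its 3 probe sets (0.79, adjusted p = 0.0908). The causes were not tested. With the onset threshold at 507.26, the 75th percentile, Taf4b and Sohlh2 started at gd14, Figla, Lhx8 and Sohlh1 at gd18 and Nobox at pnd2. The first stage at which Sohlh1 was called above gd11 moved to gd12 or gd16 in 6 of 27 alternatives, and the midpoint of Nobox moved to gd16 in 2 of 27 (a pseudocount of 8, and without gd16 replicate 7). No paired analysis was possible because no replicate number is shared between stages. Signals below 116.05 have no detection call here, which limits what can be said of Figla, Lhx8, Sohlh1 and Nobox at the early stages.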
